A study of Mus musculus with 5 samples.

Results

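Ddit4l, Ddit4, Mtor, Rptor, Rictor, Tsc1, Tsc2, Rheb, Deptor and Sesn1 encode the kinase mTOR, partners of its complexes and regulators that act upstream of it. All 10 genes were found by name in the deposited table of 15093 genes, and all 10 were among the 13560 genes tested, those whose value averaged 1 or more over the libraries. The set was chosen by pathway around Ddit4l with earlier results of the same comparison known, and Ddit4l was selected on its high difference between the groups. The differences of the 10 genes between fear conditioned and home cage libraries are therefore a description and carry no test.

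mTOR is a serine/threonine kinase that couples growth factor, amino acid, energy and stress signals to protein synthesis. In mTORC1 it is bound to raptor (Rptor) and drives translation through ribosomal protein S6 kinases and 4E-BP proteins. In mTORC2 it is bound to Rictor and phosphorylates AKT, SGK and PKC kinases. The GTPase Rheb activates mTORC1, the TSC1/TSC2 complex inactivates Rheb, and the stress-induced proteins REDD1 (Ddit4) and REDD2 (Ddit4l) inhibit mTORC1 through the TSC complex. In neurons, mTORC1 is known for its part in the protein synthesis that long-lasting synaptic plasticity and memory need.

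The measurement was translating ribosome affinity purification (TRAP), in which an EGFP-tagged ribosomal protein L10a is pulled down and the mRNA bound to the tagged ribosomes is sequenced. Every library, controls included, came from adult Drd2-TRAP mice, a cross of a Drd2-Cre BAC transgenic line with a Rosa26 line that carries EGFP/Rpl10a behind a floxed stop, so that the tag is made in any cell where Drd2-Cre has been active. There were 3 fear conditioned (FC) libraries and 2 home cage (HC) libraries, each made from bilateral punches of the central amygdala (CeA) of 3 pooled animals, with brains taken 2 h after the session. The labels call the controls home cage and place the collection after extinction. The study's methods also name these controls HC, whereas its results describe a tone without shock and a collection after conditioning. These accounts cannot be told apart from the data. Nothing in the sources gives the sex of the animals.

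The recovered reads on genes numbered 19988438 to 25022225 in the FC libraries and 19605318 and 27937520 in the HC libraries, so that 3 reads correspond to a normalized value (on a scale close to that of CPM, the reads of a gene scaled to a common library total) of 0.10 to 0.158. The HC libraries stood apart, from the FC libraries and from each other. HC replicate 2 listed 2681 genes at 0 and HC replicate 1 listed 976, against 159 to 349 in the FC libraries. The log2 values of 2 libraries correlated across genes (a description, as genes are no replicates) with Pearson's r of 0.976 to 0.984 within the FC group, 0.894 between HC replicate 1 and the FC libraries, 0.790 to 0.808 between HC replicate 2 and the FC libraries, and 0.746 within the HC group. The biological coefficient of variation from edgeR was 0.238 in the FC group and 1.23 in the HC group. Each result on the members is therefore given against each HC library as well as against both.

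Marker genes of Drd2 neurons and of other cell types also differed between the groups. The summed value of 7 markers of striatal-type Drd2 neurons ran from 19921 to 21659 in the FC libraries and from 8889 to 13334 in the HC libraries. Of the 7, 5 (Drd2, Adora2a, Penk, Gpr6 and Ppp1r1b) were higher without overlap, that is, above both HC libraries in every FC library. The study lists Adora2a and Gpr6 among its genes upregulated by fear conditioning, and reports no significant change of Drd2. Gad2 was lower without overlap (435, 481 and 472 in the FC, 657 and 671 in the HC libraries), and Penk made up most of the sum, with 16076 in FC replicate 1. Of all genes tested, 20.2% were higher and 16.1% lower without overlap, which stands beside each count of markers here. The astrocyte list summed to 480 to 628 in the FC and 1405 to 2378 in the HC libraries, with 4 of 6 markers lower without overlap. The oligodendrocyte list summed to 1248 to 2640 in the FC and 2707 to 5183 in the HC libraries, with 3 of 6 lower without overlap. The choroid plexus list, of which 7 of 8 markers were tested, summed to 108 to 183 in the FC and 1897 to 2212 in the HC libraries. Of the 7, 4 were lower without overlap. Ttr (913 and 1320) and Enpp2 (1201 and 482) made up most of the sum in HC replicates 1 and 2. Clic6 overlapped, with 50.9, 77.2 and 56.2 in the FC and 51.1 and 64.2 in the HC libraries. Of the choroid plexus markers, Kcnj13 and Folr1 had 0 reads in FC replicate 1, and Folr1 had 1 read in HC replicate 2. Aqp1 had 0 reads in FC replicates 2 and 3 and HC replicate 2, and Otx2 had 0 reads in HC replicate 2. Pallial glutamatergic neuron markers summed to 48.2 to 201 in the FC and 277 to 358 in the HC libraries, and 3 of 7 were lower and 1 higher without overlap. Microglia markers (50.4 to 91.6 in the FC, 83.0 and 102 in the HC libraries) and endothelial markers (7.91 to 32.1 in the FC, 27.4 and 192 in the HC libraries) each had 1 tested marker higher and 1 lower without overlap, of 6 tested microglia and 5 tested endothelial markers. The endothelial marker that was not tested, Tek, had values of 2.47, 0.125 and 1.69 in the FC libraries and 0 reads in both HC libraries. Xist, the RNA of the inactive X chromosome, had 0, 3 and 4 reads in the FC libraries and 666 and 1774 in the HC libraries. The values of 4 Y-linked genes summed to 86.6 to 109 in the FC and 97.6 and 49.1 in the HC libraries. Of these, Uty had 75, 257 and 225 reads in the FC libraries and 0 and 1 in the HC libraries. Ddx3y had 1117, 1387 and 1242 reads in the FC libraries and 1263 and 111 in the HC libraries. Eif2s3y and Kdm5d had higher values in both HC libraries than in any FC library. Whether the pools differed in sex was not tested. Several of the levels in this paragraph move with the groups, and their part in the results below was not tested. In such bulk pull-downs fewer cells of a type, less RNA per cell and less RNA carried over from untagged cells cannot be told apart.

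**Figure D1:**
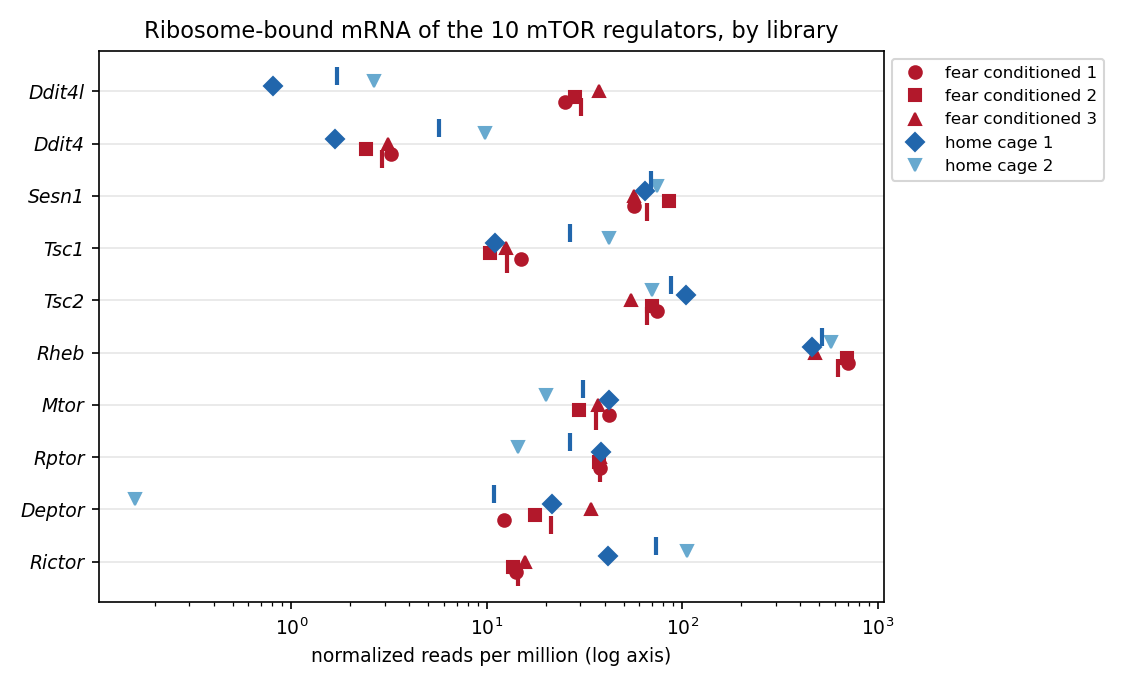
Normalized value (close to CPM, log axis) of the 10 genes in each library. Red symbols are the 3 fear conditioned libraries, blue symbols the 2 home cage libraries, and short vertical bars the group means. The groups are separate for Ddit4l (25.0 to 37.4 against 0.801 and 2.64) and for Rictor (13.6 to 15.7 against 41.5 and 105), and overlap for the other 8 genes.

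Ddit4l (ENSMUSG00000046818, chromosome 3) encodes REDD2, also known as RTP801L, an inhibitor of mTORC1. Its normalized value was 25.0, 28.4 and 37.4 in FC replicates 1, 2 and 3, and 0.801 and 2.64 in HC replicates 1 and 2. All 3 FC libraries were above both HC libraries. These values rest on 527, 681 and 753 reads in the FC libraries and 24 and 50 reads in the HC libraries, so the gene was read in every library. The mean was 30.2 ± 6.41 (SD, n = 3) in the FC group and 1.72 ± 1.30 (SD, n = 2) in the HC group, a 17.6-fold difference of means. On the log2(value + 1) scale, which understates changes of low genes, the difference was 3.59 (standard error 0.55). It was 4.10 against HC replicate 1 alone and 3.08 against HC replicate 2 alone, and it stayed between 3.08 and 4.25 in the 11 alternatives that kept the gene. By this log2 fold change Ddit4l ranked 8 from the top of the 13560 genes tested, which is the value it was chosen by.

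Ddit4 (ENSMUSG00000020108, chromosome 10), the paralog that encodes REDD1, did not share this pattern. Its normalized value was 3.22, 2.42 and 3.13 in the FC libraries and 1.67 and 9.76 in the HC libraries. The FC values lay between those of the HC libraries. The reads behind them were few, 68, 58 and 63 in the FC libraries and 50 and 185 in the HC libraries. The log2 difference was -0.46 (standard error 0.74), and it was 0.55 against HC replicate 1 alone and -1.46 against HC replicate 2 alone. Its direction therefore rested on HC replicate 2.

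The DNA just upstream of Ddit4l, Ddit4 and Rictor is shown because Ddit4l and Rictor are the members with separate groups and Ddit4 is the paralog of the former. Each window holds the 250 bases before the annotated start, 5′ to 3′ on the gene's strand, from RefSeq on GRCm38.p6, and capitals mark matches to the motifs searched. The windows are chr3:137623422-137623671 (plus strand) for Ddit4l, chr10:59951771-59952020 (minus strand) for Ddit4 and chr15:6708131-6708380 (plus strand) for Rictor.
Ddit4l: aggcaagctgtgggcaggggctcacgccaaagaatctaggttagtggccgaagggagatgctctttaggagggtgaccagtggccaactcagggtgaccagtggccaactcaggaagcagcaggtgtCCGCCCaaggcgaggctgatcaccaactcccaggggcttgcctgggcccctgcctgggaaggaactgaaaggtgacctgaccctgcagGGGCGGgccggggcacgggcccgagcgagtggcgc
Ddit4: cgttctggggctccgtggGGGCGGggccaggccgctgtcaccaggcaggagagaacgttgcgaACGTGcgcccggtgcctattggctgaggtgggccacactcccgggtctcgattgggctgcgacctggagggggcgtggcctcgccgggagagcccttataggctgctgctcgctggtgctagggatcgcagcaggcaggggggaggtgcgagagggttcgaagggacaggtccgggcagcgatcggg
Rictor: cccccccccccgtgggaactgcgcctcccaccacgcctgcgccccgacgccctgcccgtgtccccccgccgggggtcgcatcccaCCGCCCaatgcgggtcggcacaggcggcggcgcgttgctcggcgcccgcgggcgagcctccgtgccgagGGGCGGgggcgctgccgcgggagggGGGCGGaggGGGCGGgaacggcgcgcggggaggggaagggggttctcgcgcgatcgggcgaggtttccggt

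The Ddit4l window was 65.2% G and C with 10 CpG dinucleotides, the Ddit4 window 70.0% with 22 and the Rictor window 81.2% with 40, against medians of 52.4% and 6 over the 32851 promoter windows of the table. The motifs searched were the TATA box TATAAA (gene strand), and on both strands the cAMP response element half-site TGACG, the hypoxia response element core ACGTG, the glucocorticoid response element half-site AGAACA, the GC box GGGCGG and the ATF4 response element core TGATGNAA. TGACG and ACGTG share the letters ACG and can overlap, and no matches overlap in these windows. Ddit4l held GC boxes beginning 123 and 35 bases before the start, and Rictor held 4, beginning 165, 96, 71 and 62 bases before it. Ddit4 held a GC box beginning at 232 bases and a hypoxia response element core beginning at 187 bases before the start. Of all windows, 32.7% hold the GC box, 16.6% the hypoxia core, 17.8% the cAMP half-site, 16.1% the glucocorticoid half-site, 7.59% the TATA box and 3.45% the ATF4 core. None of the last 4 motifs was found in these 3 windows. Of the 10 genes, 9 had a promoter entry. Among those not shown, Mtor, Rheb and Sesn1 also held GC boxes, with overlapping groups, and Rptor, Tsc1 and Tsc2 held none.

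Sesn1 (ENSMUSG00000038332, chromosome 10) encodes sestrin 1, a stress-responsive leucine sensor that restrains mTORC1 through the GATOR complexes. Its normalized value was 56.3, 85.3 and 56.8 in the FC libraries and 64.4 and 74.2 in the HC libraries. Both HC libraries lay inside the FC range. The log2 difference was -0.09 (standard error 0.29), with another sign in 4 of 12 alternatives. It was 0.01 against HC replicate 1 alone and -0.19 against HC replicate 2 alone.

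Within the TSC complex, Tsc1 (ENSMUSG00000026812, chromosome 2), the scaffold hamartin, had values of 15.0, 10.4 and 12.6 in the FC libraries and 11.0 and 42.3 in the HC libraries. HC replicate 1 was inside the FC range and HC replicate 2 above it, so that the log2 difference of -0.76 (standard error 0.64) became 0.17 against HC replicate 1 alone and -1.68 against HC replicate 2 alone. Tsc2 (ENSMUSG00000002496, chromosome 17), the GTPase-activating subunit tuberin, had values of 74.2, 69.7 and 54.7 in the FC libraries and 105 and 70.1 in the HC libraries. Here it was HC replicate 1 that lay above the FC libraries. The log2 difference was -0.38 (standard error 0.29), and its sign was negative in all 12 alternatives. It was -0.66 against HC replicate 1 alone and only -0.09 against HC replicate 2 alone, which lay inside the FC range. Rheb (ENSMUSG00000028945, chromosome 5), the GTPase that the complex switches off, was the most abundant of the 10 mRNAs in every library. Its values were 704, 698 and 474 in the FC libraries and 458 and 576 in the HC libraries. The groups overlapped through FC replicate 3, and the log2 difference was 0.26 (standard error 0.27). It was 0.42 against HC replicate 1 alone and 0.09 against HC replicate 2 alone.

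Among the subunits of the mTOR complexes, Rictor (ENSMUSG00000050310, chromosome 15), which defines mTORC2, was the member with separate groups. Its value was 14.1, 13.6 and 15.7 in the FC libraries and 41.5 and 105 in the HC libraries, from 298, 327 and 317 reads and from 1242 and 1999 reads. All 3 FC libraries were below both HC libraries and close to each other, and the HC libraries differed from each other. The mean was 14.5 ± 1.11 (SD, n = 3) in the FC group and 73.4 ± 45.2 (SD, n = 2) in the HC group, which is 5.07-fold higher in the HC group. It was 2.86-fold higher in HC replicate 1 and 7.27-fold higher in HC replicate 2. The log2 difference was -2.12 (standard error 0.47) and ran from -2.78 to -1.46 over the 12 alternatives.

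Rptor (ENSMUSG00000025583, chromosome 11), which defines mTORC1, had values of 38.0, 37.3 and 37.8 in the FC libraries, with a coefficient of variation of 0.976%, and 38.4 and 14.5 in the HC libraries. HC replicate 1 matched the FC level and HC replicate 2 was lower. The log2 difference of 0.65 (standard error 0.46) was -0.03 against HC replicate 1 alone and 1.32 against HC replicate 2 alone. Mtor (ENSMUSG00000028991, chromosome 4), the kinase itself, had values of 42.3, 29.6 and 37.1 in the FC libraries and 41.9 and 20.1 in the HC libraries. HC replicate 1 lay inside the FC range and HC replicate 2 below it. Its log2 difference of 0.30 (standard error 0.42) was -0.22 against HC replicate 1 alone and 0.81 against HC replicate 2 alone.

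Deptor (ENSMUSG00000022419, chromosome 15), an inhibitor that binds mTOR in both complexes, was the most uneven member. Its value was 12.2, 17.7 and 34.1 in the FC libraries, 21.6 in HC replicate 1 and 0.158 in HC replicate 2. The last value is 3 reads, against 647 reads in HC replicate 1 and 257, 424 and 687 in the FC libraries. HC replicate 1 thus lay inside the FC range while HC replicate 2 was at the floor. The log2 difference of 2.00 (standard error 1.26) was -0.14 against HC replicate 1 alone and 4.15 against HC replicate 2 alone.

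**Figure D2:**
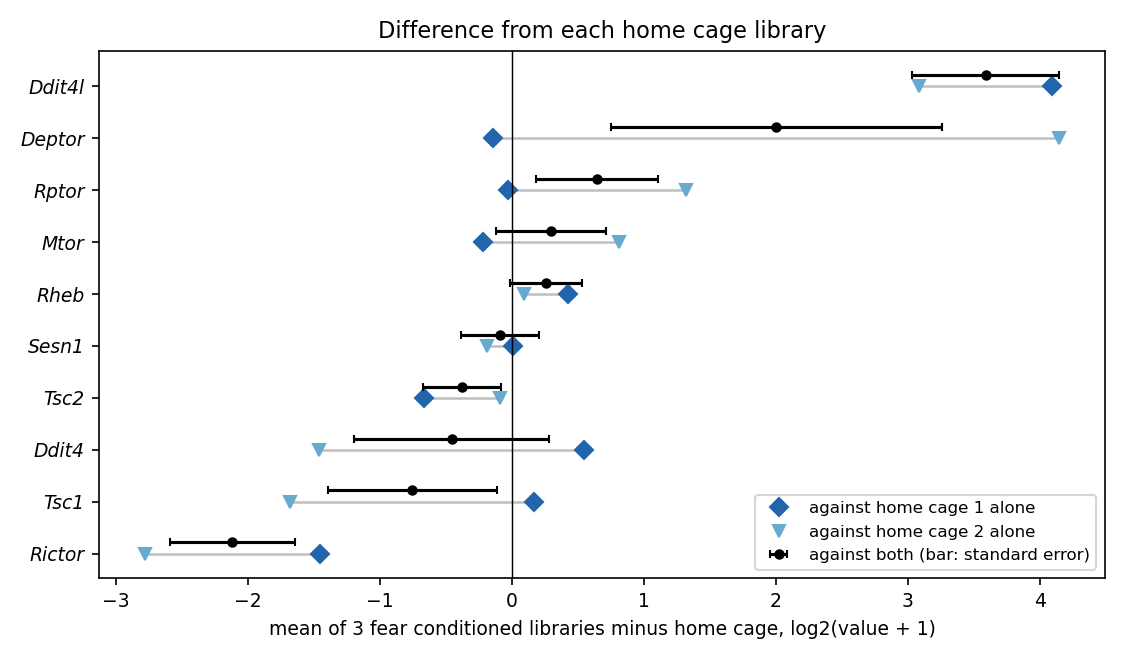
Difference of the mean log2(value + 1) of the 3 fear conditioned libraries from home cage replicate 1 alone (diamonds), from home cage replicate 2 alone (triangles) and from both (black points, bars are standard errors of the limma fit). Ddit4l lies above 0 and Rictor below 0 against either home cage library, while the differences of Deptor, Rptor, Mtor, Ddit4, Tsc1 and Sesn1 have opposite signs against the 2 libraries.

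Counted over the 10 genes, 1 was higher in every FC library than in both HC libraries, where 20.2% of all genes tested were, and 1 was lower, where 16.1% of all genes tested were. The other 8 overlapped. By log2 difference 5 were above 0 and 5 below, with a median of 0.08, and the median over all genes tested was also 0.08. The sign against HC replicate 1 was opposite to that against HC replicate 2 in 6 of the 10. The HC libraries differed by more than 1 on the log2 scale in 7 of the 10, with a median absolute difference of 1.18 for the members and 1.08 for all genes tested. The log2 range over the 3 FC libraries had a median of 0.49 for the members and 0.44 for all genes tested. At cutoffs of 0.05 for the adjusted p and 0.5 for the size of the log2 difference, limma called 0 of the 10 and 0% of all genes tested, with 2280 of all genes at an unadjusted p under 0.05 and a smallest adjusted p of 0.197. edgeR called 0 genes as well, with 2039 at an unadjusted p under 0.05, and DESeq2 called 2 of the 10, Ddit4l and Rictor, beside 7.5% of all genes tested. Over all genes, limma's count rose far above 0 when either HC library was left out, a fit with a lone control. Since the contrast was in view when the members were chosen, these counts are a description.

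The level of each mRNA was compared between genes per length, as the normalized value divided by the deposited gene length in kilobases. In that order Rheb came first, with a geometric mean over the 5 libraries of 102 per kilobase, followed by Sesn1 (20.1), Tsc2 (11.6), Mtor (3.48), Ddit4l (3.06), Rictor (2.84), Tsc1 (2.65), Rptor (2.41), Ddit4 (1.97) and Deptor (0.837). Rheb mRNA stood above the mRNAs of Mtor and Rptor in every library. Rheb was above Sesn1 5.08-fold, Sesn1 above Tsc2 1.73-fold and Tsc2 above Mtor 3.33-fold, each in 5 of 5 libraries. An exact sign-flip permutation test over the 5 libraries (two-sided) gave p = 0.0625 for each of these 3 steps, the smallest p that 5 libraries allow, and 0.1875 after adjustment over the 9 neighbouring pairs. For the other 6 neighbours the exact permutation p was 0.75 to 1 over the pooled libraries, whose spread for Ddit4l and Rictor holds the difference between the groups. Ddit4l was above Rictor per kilobase in all 3 FC libraries and below it in both HC libraries. Without division by length Tsc2 came before Sesn1, at ranks 2 and 3, Ddit4l moved from rank 5 to rank 8, Rptor from 8 to 5, and Ddit4 and Deptor traded ranks 9 and 10. The first 3 ranks were the same in both groups. Below them Ddit4l stood at rank 4 of the 10 by its FC mean per kilobase and at rank 10 by its HC mean, and Rictor at rank 10 by its FC mean and rank 4 by its HC mean.

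Ratios between partners within a library do not depend on the scaling of that library. The ratio of Ddit4l to Ddit4 per kilobase was 4.48, 6.78 and 6.91 in the FC libraries and 0.277 and 0.156 in the HC libraries. REDD2 mRNA was the more abundant of the paralogs in every FC library and the less abundant in both HC libraries. The ratio of Rictor to Rptor, the subunits that define mTORC2 and mTORC1, was 0.516, 0.507 and 0.578 in the FC libraries and 1.5 and 10.1 in the HC libraries. The mTORC1 subunit was ahead in the FC libraries and the mTORC2 subunit in the HC libraries, with a wide gap between the HC libraries. The ratio of Tsc1 to Tsc2 was 0.217, 0.160 and 0.246 in the FC libraries and 0.113 and 0.648 in the HC libraries, so the groups overlapped. The ratio of Deptor to Mtor was 0.301, 0.625 and 0.963 in the FC libraries and 0.540 and 0.00825 in the HC libraries, and these also overlapped.

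**Figure D3:**
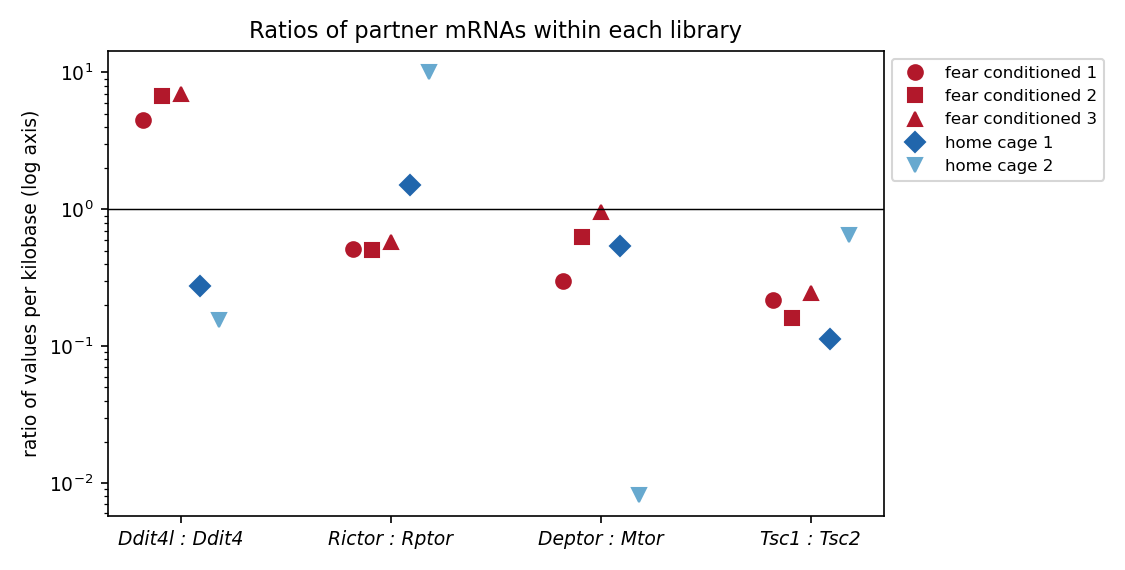
Ratio of the values per kilobase (log axis) of 4 pairs of mRNAs within each library, with red symbols for fear conditioned and blue symbols for home cage libraries. The ratio of Ddit4l to Ddit4 lies above 1 in the 3 fear conditioned and below 1 in the 2 home cage libraries, the ratio of Rictor to Rptor the other way round, and the other 2 ratios overlap between the groups.

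The rest of the pathway was described with 95 further genes in 10 lists by role, of which 94 were in the table and tested. None passed both cutoffs in limma with Benjamini-Hochberg adjustment (smallest adjusted p = 0.197), with 15 of 94 (16.0%) at an unadjusted p under 0.05, where all genes tested had 16.8%. edgeR also called 0 of them. Fits without either HC library have a lone control, and their counts of called genes rose over all genes too. Those counts are therefore no result on the pathway and are not given. Higher in every FC library than in both HC libraries were 19 of the 94 (20.2%), the same share as among all genes tested (20.2%), and lower were 11 (11.7%), against 16.1% of all genes tested. The log2 difference was above 0 in 58 (61.7%) and below 0 in 36, where 54.0% of all genes tested were above 0. Its median was 0.17, and 0.08 over all genes tested. With edgeR the 2 medians were 0.06 and -0.07, and with DESeq2 0.03 and -0.11. Without HC replicate 1 they were 0.27 and 0.19, and without HC replicate 2 0.07 and -0.04. DESeq2 called 4 of the 94 (4.26%), a smaller share than its 7.5% of all genes tested, namely Sgk3 and Prr5l as higher and Depdc5 and Grb10 as lower after fear conditioning.

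Sgk3, an AKT-like kinase of endosomes, had values of 25.0, 40.4 and 39.3 in the FC libraries and 8.75 and 2.11 in the HC libraries, a log2 difference of 2.67 (standard error 0.62, limma adjusted p = 0.197). Prr5l, which binds mTORC2, had 68, 84 and 148 reads in the FC libraries and 8 and 2 in the HC libraries, a log2 difference of 2.19 (standard error 0.58, limma adjusted p = 0.206). For both genes the FC libraries were above both HC libraries. Depdc5, a GATOR1 subunit that inhibits the Rag GTPases, had values of 11.8, 16.1 and 12.1 in the FC libraries and 30.0 and 47.9 in the HC libraries, a log2 difference of -1.46 (standard error 0.42, limma adjusted p = 0.217). Grb10, an adaptor that mTORC1 phosphorylates and that damps insulin signalling, had values of 23.0, 19.0 and 22.7 in the FC libraries and 38.7 and 86.2 in the HC libraries, a log2 difference of -1.39 (standard error 0.43, limma adjusted p = 0.226). Both were below the HC libraries in every FC library.

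By role, the 9 tested mTOR complex subunits, 4 of them members, had a median log2 difference of 0.65, which was -0.03 without HC replicate 2. Of the subunits that are not members, Mapkap1, the mSIN1 subunit of mTORC2, had values of 102, 147 and 117 in the FC and 75.1 and 47.6 in the HC libraries, separate groups with a log2 difference of 1.00 (standard error 0.30, limma adjusted p = 0.221). Mlst8, a subunit of both complexes, had a log2 difference of -0.15 and Prr5 one of -0.24, both with overlapping groups and with the other sign without HC replicate 2 (Mlst8, 0.25) or without HC replicate 1 (Prr5, 0.42). The mTORC2 subunits thus did not share a direction, with Rictor low and Mapkap1 and Prr5l high in the FC libraries. In the TSC list the remaining genes, Tbc1d7 (-0.12, and 0.37 without HC replicate 2) and Rhebl1 (0.09), had small differences, and the groups overlapped in all 5 genes of the list.

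The inhibitors and nutrient sensors also had differences in both directions. Sesn3, a sestrin, had values of 16.0, 14.0 and 17.4 in the FC and 3.31 and 8.38 in the HC libraries, a log2 difference of 1.40 (standard error 0.55, limma adjusted p = 0.287). Its groups were separate, as were those of Castor2, a homolog of the arginine sensor Castor1, which was lower with a log2 difference of -0.98 and values of 64.2, 99.4 and 85.4 against 113 and 233. Sesn2 had 112, 76 and 84 reads in the FC libraries and 113 and 0 in the HC libraries, and Castor1 had 27, 10 and 22 reads against 0 and 160, so neither had a steady control level. The 7 genes of the list, 3 of them members, had a median of -0.09. Among the 13 Rag GTPase and Ragulator genes, which bring mTORC1 to the lysosome, 9 were above 0 and the median was 0.14 (0.02 without HC replicate 2), from Slc38a9 (-1.05) and Rragb (-0.33) to Fnip2 (0.52, with 0 reads in HC replicate 2, and -1.37 without that library) and Rragd (0.63). Among the 11 GATOR and KICSTOR genes, 9 were above 0 and the median was 0.38, with Depdc5 and Seh1l (-0.04) as the lowest and Wdr59 (1.54) as the highest. The difference of Wdr59 rested on HC replicate 1, at 0.401 against 32.2 in HC replicate 2.

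Upstream, the 12 insulin, PI3K and AKT genes had 6 above and 6 below 0 and a median of 0.08. The insulin receptor Insr (-1.32, separate groups) and Igf1r (-1.04) were lowest. Insr ran from -2.14 without HC replicate 1 to -0.50 without HC replicate 2, and Igf1r turned to 0.12 without HC replicate 2. The adaptor Irs2 (1.77, standard error 0.72, limma adjusted p = 0.293) and Akt2 (1.06, standard error 0.31, limma adjusted p = 0.217) were highest, and their groups were separate. The 7 genes of AMPK, an energy sensor that opposes mTORC1, and of its inputs had a median of 0.26, which was -0.03 without HC replicate 2. They ran from Prkab1 (-1.46) and Prkaa1 (-0.35) to Prkag1 (0.49) and the AMPK-activating kinase Stk11 (1.06). Stk11 turned to -0.15 and Prkaa1 to 0.29 without HC replicate 1, and Prkag1 to -0.03 without HC replicate 2. Downstream, the 18 mTORC1 and mTORC2 targets had 10 above and 8 below 0. Their median of 0.17 turned negative with quantile normalization (-0.09), with edgeR (-0.22) and with DESeq2 (-0.26), and it was -0.26 without HC replicate 2 and 0.63 without HC replicate 1. Besides Sgk3 and Grb10, the autophagy kinase Ulk1 had a log2 difference of -0.93 with separate groups, and the kinase Eef2k one of 0.97 that turned to -0.15 without HC replicate 2. The 12 mRNAs with a terminal oligopyrimidine tract, whose translation follows mTORC1 activity, had a median of 0.14, between Pabpc1 (-0.61) and Rps3 (-0.42) and Eef1a1 (0.73) and Hnrnpa1 (0.83). Without HC replicate 2, Pabpc1 became 0.07, Rps3 0.08 and Eef1a1 -0.01. The 12 stress genes, which include the known inducers of Ddit4, had a median of -0.18, which was 0.06 without HC replicate 2 and 0.04 with a pseudocount of 0.1. Hif1a, the hypoxia factor, had a log2 difference of -0.89 (standard error 0.26, limma adjusted p = 0.218) with separate groups, and Chac1 had one of -1.18 that became 0.03 without HC replicate 2. Fkbp5, a glucocorticoid target, had 0.42 and Ddit3 0.97, both higher with separate groups.

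**Figure D4:**
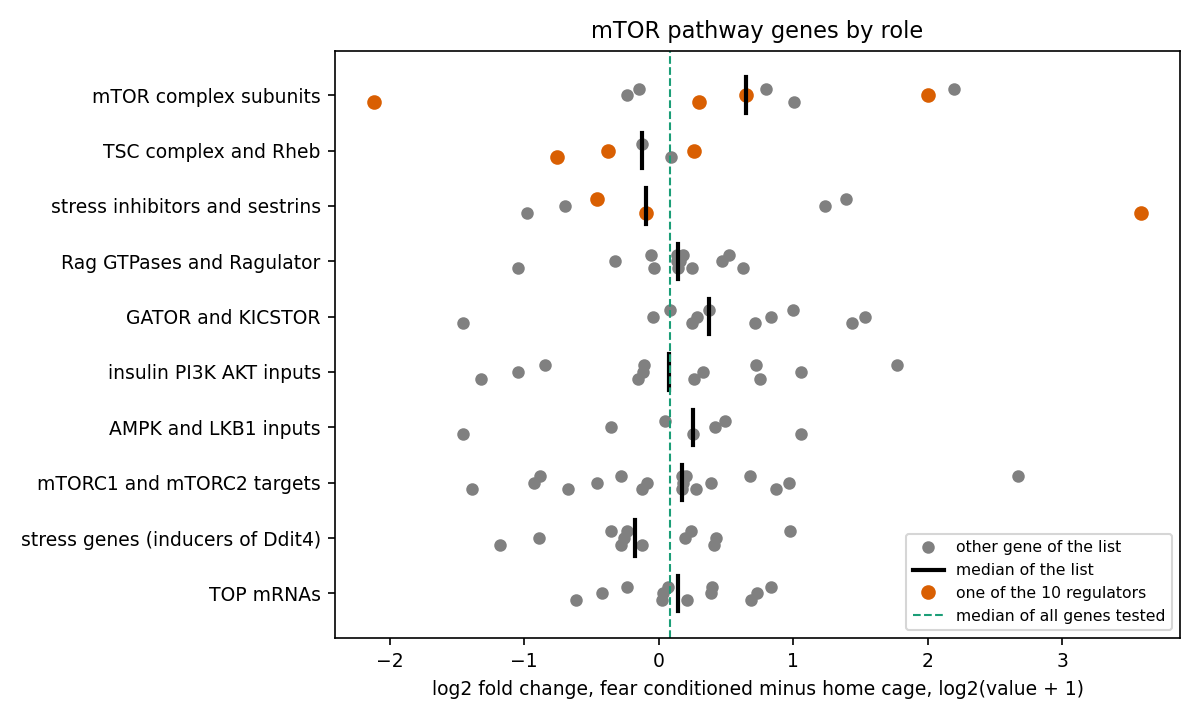
Log2 difference between fear conditioned and home cage libraries, on log2(value + 1), for each gene of 10 pathway lists. Orange points are the 10 members and grey points the other genes, black bars are the list medians and the dashed line is the median of all genes tested (0.08). List medians lie between -0.18 and 0.65, and every list holds genes on both sides of 0.

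The genes most like Ddit4l were found by the Euclidean distance between log2(value + 1) profiles over the 5 libraries, each centred on its own mean. They were B3galt5 (distance 0.36), Ccdc126 (0.79), Gdpd5 (0.79), Fblim1 (0.84) and Impa2 (0.91), where the median gene stood at 4.17. In HC replicates 1 and 2, Fblim1 had 0 and 1 reads and Impa2 1 and 0, below the floor of 3 reads. B3galt5 had 5 and 32 reads there, Ccdc126 56 and 64 and Gdpd5 101 and 139. B3galt5, a galactosyltransferase, had values of 20.6, 23.5 and 33.1 in the FC libraries and 0.167 and 1.69 in the HC libraries. Like Ddit4l it was highest in FC replicate 3 and lowest in HC replicate 1. The genes most like Ddit4 were Rps15a-ps7 (0.13), Gm12396 (0.15), Gm7331 (0.17), Crlf2 (0.17) and Wdr45 (0.19), with a median gene at 1.99. Each of them was highest in HC replicate 2 and lowest in HC replicate 1, as Ddit4 was. Rps15a-ps7 is a pseudogene, and its reads may not be told apart from those of near-identical copies. The 5 libraries are the same for every gene, so these distances also hold what the libraries share.

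By the RefSeq annotation on GRCm38.p6, other genes overlap 4 of the members. Mtor overlaps Angptl7, Gm24002 and Gm23318, Rptor overlaps Rptoros, Tsc2 overlaps Pkd1 and Deptor overlaps Gm9920. The use of strand in counting is not given in the sources used here, so reads of these pairs may not be told apart. No overlap was found for Ddit4l, Ddit4, Rictor, Tsc1, Rheb or Sesn1.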

How the data were processed

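Ribosome-bound mRNA was measured in 5 libraries, grouped by their labels into 3 fear conditioned and 2 home cage libraries. The authors sequenced the libraries and deposited a normalized signal per gene and library, on a scale close to CPM, together with a gene length. The study's methods name SMARTer and Nextera XT kits for the libraries, paired-end Illumina sequencing and Tuxedo DESeq software, and the submitters' processing notes name DESeq and mm8. The aligner and the counting settings are not given in the sources used here. Within a library 100% of values were whole multiples of the value of 1 read (tolerance 0.01), and these gave recovered reads of 19605318 to 27937520 per library. Floors of 3 reads cover counting error only.

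The groups were compared with limma 3.58.1 (lmFit, eBayes with trend) on log2(value + 1), leaving out genes whose value averaged under 1, with Benjamini-Hochberg adjustment, at an adjusted p of 0.05 and an absolute log2 fold change of 0.5. Neighbours in the order of levels were compared with an exact sign-flip permutation test. Nothing states that the pools are independent litters or batches, so p-values measure the spread between these libraries only. The members, the 10 pathway lists and the 7 marker lists were chosen with earlier results of these data known. Named were the members, the genes with the 2 highest and 2 lowest log2 fold changes of each list, and the 5 genes most like Ddit4l and Ddit4, and some named items are not reported here. Alternatives were a pseudocount of 0.1, no filter, a filter asking for 1 or more in each library, quantile normalization, edgeR 4.0.16 and DESeq2 1.42.0 on recovered reads, and each library left out in turn. Names were matched by the deposited table and a table of gene identifiers, in which 14622 identifiers were found. RefSeq gene tables on GRCm38.p6 served for names, chromosomes, overlaps and promoter sequences only, as the build differs from that of the notes. Fits were also run on simulated data in which every library had the same spread. The real groups did not, with a biological coefficient of variation of 0.238 in the FC and 1.23 in the HC group. The simulation therefore does not show how the fits behave on these data. The software was Python 3.11.15 (with scipy 1.17.1, pandas 2.3.3, numpy 2.4.6 and matplotlib 3.10.9) and R 4.3.3.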

Additional observations from a re-analysis of the deposited data

How the results depend on the processing

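Ddit4l stayed higher and Rictor lower in the FC libraries in all alternatives that kept them (the filter asking for 1 or more in each library dropped Ddit4l and Deptor), and Tsc2 and Rheb also kept their signs. Without HC replicate 2 the signs of Deptor, Rptor, Mtor, Tsc1 and Ddit4 turned, as did that of Sesn1, which turned in 4 alternatives in all. Over the members, 100 values moved by less than the spread between libraries and 18 by more. For the list medians and ranks the numbers were 120 and 22.

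limma called 0 genes, and DESeq2 called 1017, 501 higher and 516 lower, 4 of them among the 94 pathway genes. With 1 library left out the count ran from 0 to 8025 (0 to 4808 higher, 0 to 3217 lower), and from 0 to 51 among the pathway genes. The highest counts came without HC replicate 1, and without HC replicate 2 there were 3722 genes (1596 higher, 2126 lower) and 16 pathway genes. The lone HC library is then assumed to vary like the FC libraries. Without FC replicate 2, 1 gene was called, as lower. The number of members above both HC libraries in every FC library was 2 with quantile normalization and from 1 to 4 with a library left out. The number below both was 2 with DESeq2's scaling and from 1 to 3 with a library left out. Without HC replicate 1, Ddit4l, Deptor, Rptor and Mtor were above and Rictor, Tsc1 and Ddit4 below. Without HC replicate 2, Ddit4l, Ddit4 and Rheb were above and Rictor, Tsc2 and Rptor below. With fewer libraries, and most of all with a lone HC library, the groups separate more easily in any gene. The shares of 20.2% higher and 16.1% lower among all genes tested hold for the full set of libraries only. No such share is given for the alternatives, so these counts of members have no background and are no result on the members. Scaling moved the median of all genes from 0.08 to -0.11 with DESeq2 and to -0.07 with edgeR. No paired analysis was possible because the labels give no replicate numbers, and those used here only name the libraries in accession order. Ddit4 in all libraries, Deptor in HC replicate 2 and Ddit4l in the HC libraries rest on few reads, and a control group of 2 libraries that differ from each other limits every comparison.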
